A study of Homo sapiens with 24 samples.

Results

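The genes described here are 3 that mark ventricular heart muscle cells, MYL2, IRX4 and HEY2, and 5 that mark atrial heart muscle cells, MYL7, NR2F2, NR2F1, KCNA5 and KCNJ3. Their chromatin was followed through 36 regions, out of 153244 counted in the whole series, that overlapped a fixed hg19 window around one of the 8 genes. The ventricular windows held 19 of these regions (9 for MYL2, 5 for IRX4 and 5 for HEY2). The atrial windows held 17 (4 for MYL7, 5 each for NR2F2 and NR2F1, 2 for KCNA5 and 1 for KCNJ3). The cells were H9 human embryonic stem cells differentiated with a kit for ventricular cardiomyocytes and taken at day 15, either as control cells or with ZNF436, a zinc finger protein gene, knocked down. All cells came from the single line H9, and neither what the controls received nor how the knockdown was made is given in the sources used here. The assay was CUT&Tag, which uses an antibody to bring a DNA-tagging enzyme to nucleosomes with a given mark, on 100000 cells per sample. Each of 4 histone marks had 3 control and 3 knockdown libraries. RNA of ZNF436 was not analysed here, so the knockdown itself has no check in these values.

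Chambers of the heart differ in which transcription factors and contractile proteins their muscle cells use. HEY2 and IRX4 are transcription factors of the ventricular wall, where they hold back atrial genes, and MYL2 encodes the regulatory myosin light chain of the ventricle. NR2F1 and NR2F2 (COUP-TFI and COUP-TFII) are nuclear receptors that act in atrial cells, MYL7 encodes the atrial regulatory light chain, and KCNA5 and KCNJ3 encode potassium channel subunits of atrial cells. MYL7 is also active throughout the early heart, before the chambers separate. Of the marks, H3K4me3 sits at promoters, H3K27ac at active promoters and enhancers, H3K4me1 at enhancers, and H3K9me3 in silenced heterochromatin.

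Counts summed to 11023905 to 13933927 per H3K4me3 library, 2955710 to 3681687 per H3K27ac library, 3920283 to 4936265 per H3K4me1 library and 2103185 to 2880412 per H3K9me3 library. Levels are in CPM, counts per 1000000 after TMM scaling of the library size, and genes are compared with each other only as CPM per kb of region. A percentile ranks a region's mean control CPM per kb among all 153244 regions of that mark. No hg19 annotation was used, so regions are given by position and not as exon, intron or promoter. Windows can reach past the genes: in RefSeq gene order (GRCh38.p14), CCDC63 lies within 10 kb of MYL2. IRX4, NR2F2 and NR2F1 are each overlapped by a gene named as their antisense RNA, and the counts carry no strand.

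RefSeq start-site sequences (GRCh38.p14, 250 bases before to 50 bases after the start) matched 7 of the 8 genes, all but MYL2, with 11 sequences. One sequence each of MYL7, NR2F1 and HEY2 is shown. The first 2 are the ones that hold a CArG box, and those of MYL7 and HEY2 lie far apart in CpG content. Capitals mark matches, on either strand, to GATAA (the GATA factor motif), AGGTCA (the nuclear receptor half-site) or the CArG box of serum response factor. The first is MYL7 (chr7:44141283-44141582, minus strand), the second NR2F1 (chr5:93582972-93583271, plus strand) and the third HEY2 (chr6:125749382-125749681, plus strand).
MYL7: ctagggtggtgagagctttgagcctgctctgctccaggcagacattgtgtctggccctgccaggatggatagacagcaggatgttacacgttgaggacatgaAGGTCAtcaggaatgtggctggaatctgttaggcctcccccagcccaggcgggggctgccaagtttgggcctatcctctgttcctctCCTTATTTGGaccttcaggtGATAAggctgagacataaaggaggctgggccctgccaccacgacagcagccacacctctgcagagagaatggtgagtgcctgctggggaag
NR2F1: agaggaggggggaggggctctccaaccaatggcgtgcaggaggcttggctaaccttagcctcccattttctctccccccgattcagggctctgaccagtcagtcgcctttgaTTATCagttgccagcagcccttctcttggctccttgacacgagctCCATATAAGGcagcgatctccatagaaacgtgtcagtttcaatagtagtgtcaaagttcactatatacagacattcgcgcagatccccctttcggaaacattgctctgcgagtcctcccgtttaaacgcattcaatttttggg
HEY2: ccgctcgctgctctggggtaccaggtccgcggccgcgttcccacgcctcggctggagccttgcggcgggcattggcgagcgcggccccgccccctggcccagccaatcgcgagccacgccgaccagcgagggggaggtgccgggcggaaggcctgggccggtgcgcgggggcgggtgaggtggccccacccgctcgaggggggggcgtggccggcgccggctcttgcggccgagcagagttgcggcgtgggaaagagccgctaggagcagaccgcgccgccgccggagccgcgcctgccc

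A CArG box was found in 2 of the 11 sequences, those of MYL7 and NR2F1 shown above, and in 1.29% of 35116 RefSeq start-site sequences of the same length. GATAA occurred in the same 2 sequences and in 22.7% of all. AGGTCA occurred in 1, that of MYL7, and in 13.8% of all. Of 3 further motifs searched on both strands, CACGTG (an E box) was in 1 sequence, of NR2F2 (7.26% of all), TATAAA in 1, the other NR2F1 sequence (11.5% of all), and TNAAGTG (NKX2-5) in 0 (10.2% of all). No match overlapped a match of another motif. MYL7 held 3 CpG in 300 bases, and 18.2% of all start sites held fewer. The NR2F1 sequences held 12 and 3, those of NR2F2 23 and 16, KCNJ3 15 and KCNA5 17, beside a median of 14. HEY2 held 43, and the IRX4 sequences held 36, 47 and 44. These matches describe letters in a window, and the GRCh38 positions were not converted to the hg19 regions.

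In control cells the ventricular transcription factor genes carried H3K4me3 and H3K27ac together. HEY2 had the highest H3K4me3 of the 8 genes. Its leading region, the one with the most H3K4me3 per kb in the window (chr6:126067386-126072638), held 165, 135 and 186 CPM in control libraries 1, 2 and 3. That was 30.8 CPM per kb, at percentile 97.9, and H3K27ac there was at percentile 87.8. The leading region of IRX4 (chr5:1881432-1888874) held 91.5, 41.8 and 166.6 CPM of H3K4me3 and 157, 51.7 and 158 CPM of H3K27ac, at percentiles 93.0 and 97.6. At IRX4 control library 2 was the lowest in both marks. The neighbouring IRX4 region (chr5:1875622-1881161) was at percentile 96.2 for H3K27ac and 88.8 for H3K4me3.

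MYL2, the ventricular light chain gene, had H3K27ac without much H3K4me3. Over its 9 regions the control libraries held 1.49, 0.783 and 4.05 CPM of H3K4me3 but 62.8, 46.5 and 145.9 CPM of H3K27ac. Its leading region by H3K4me3 (chr12:111358543-111358818) held 0.083, 0.214 and 0.337 CPM, a total of 8 counts, and 5 of the 9 regions had no H3K4me3 count in any control library. Of the 3 ventricular markers, HEY2 and IRX4 therefore carried clear H3K4me3 and MYL2 almost none. Most of the H3K27ac was in 2 regions near the window's end, chr12:111365971-111367406 and chr12:111367817-111370722, at percentiles 93.0 and 94.4 in control cells.

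Among the atrial genes, MYL7 stood apart from NR2F2, NR2F1 and KCNJ3, and KCNA5 was like neither. MYL7 had 2 broad regions rich in H3K27ac, chr7:44169136-44173269 at percentile 99.1 and chr7:44174147-44182559 at percentile 93.7. The first was also at percentile 97.2 for H3K4me1. H3K4me3 in the broader one was 14.4, 6.76 and 25.1 CPM, which is 1.83 CPM per kb. The region with the most H3K4me3 per kb in this window was a smaller one (chr7:44184956-44186235), with 5.12 CPM per kb.

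NR2F2, NR2F1 and KCNJ3 showed the opposite balance, with H3K4me3 and little H3K27ac per kb. The NR2F2 regions are broad, 22201 bp together, and their summed H3K27ac averaged 86.9 CPM in control libraries. The leading NR2F2 region (chr15:96872392-96880882) held 202, 209 and 135 CPM of H3K4me3, at percentile 95.3, while its H3K27ac was at percentile 64.1. The leading NR2F1 region (chr5:92914437-92917466) was at percentile 93.0 for H3K4me3 and 29.9 for H3K27ac. The single KCNJ3 region (chr2:155552822-155555458) was at percentile 91.1 for H3K4me3 and 30.1 for H3K27ac. KCNA5 had few counts of H3K4me3: its short leading region (chr12:5156055-5156860) held 2.65, 0.783 and 1.77 CPM, at percentile 88.4. The same region was at percentile 46.0 for H3K27ac and 89.2 for H3K4me1. The other KCNA5 region (chr12:5142651-5144321) was at percentile 38.1 for H3K4me3 and 70.9 for H3K27ac.

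**Figure D1:**
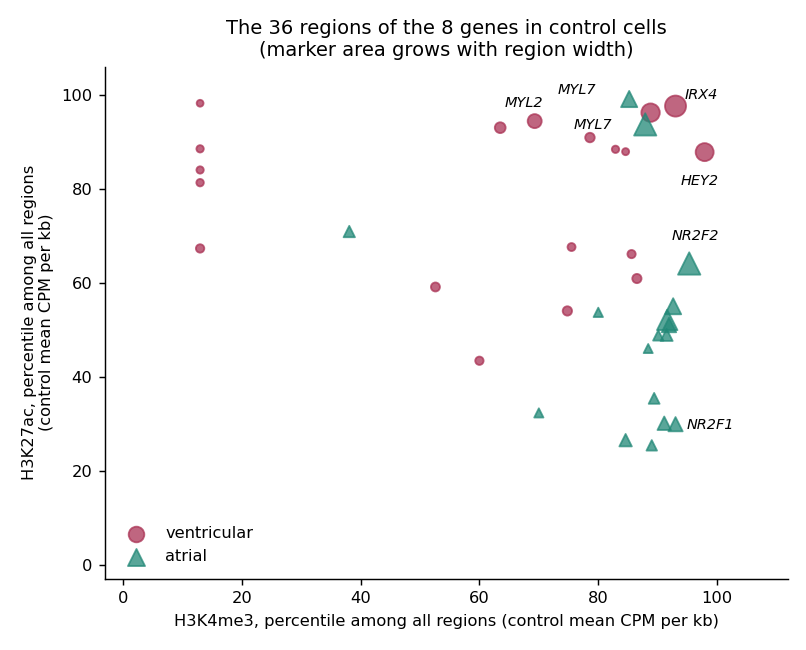
Each point is 1 of the 36 regions, placed by its percentile among all 153244 regions for H3K4me3 (horizontal) and H3K27ac (vertical) in control cells, with circles for ventricular and triangles for atrial genes and marker area by region width. Regions of NR2F2 and NR2F1 lie at percentile 70.0 or above for H3K4me3 and no higher than percentile 64.1 for H3K27ac, while the labelled IRX4 and MYL7 regions lie above percentile 93.

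Counted over regions, 15 of 17 atrial and 7 of 19 ventricular regions were among the 20% with the most H3K4me3 per kb. That share reached down to regions with few counts. Of the ventricular ones, the 276 bp MYL2 region had 8 counts over the control libraries and the 199 bp IRX4 region had 7. Of the atrial ones, the 907 bp MYL7 region had 21 counts, at 0.603 CPM per kb. For H3K27ac the top 20% held 2 of 17 atrial regions, both of MYL7, and 12 of 19 ventricular ones, of which 8 were MYL2 regions. Several of those are short with few counts: the 148 bp MYL2 region at percentile 98.2 had 7.23 CPM in control library 3, 0.619 in library 1 and 0 in library 2 and in every knockdown library. No region of the 36 was in the top 20% for H3K9me3, and the highest, in the NR2F1 window, was at percentile 73.0.

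Ordered by window total per kb in control cells, H3K27ac was 15.0 ± 7.62 CPM per kb at IRX4 (SD, n = 3), 13.6 ± 5.39 at MYL7, 11.9 ± 7.43 at MYL2 and 8.10 ± 3.48 at HEY2. KCNA5 followed with 5.34 ± 3.04, NR2F2 with 3.91 ± 1.44, NR2F1 with 2.61 ± 1.95 and KCNJ3 with 1.32 ± 0.745. Every gene's libraries overlapped those of the next in this order. For H3K4me3 the order was HEY2 (19.6 ± 3.16), NR2F2 (12.7 ± 2.78), NR2F1 (9.81 ± 2.81), IRX4 (8.16 ± 5.05), KCNJ3 (7.58 ± 3.00), MYL7 (1.81 ± 0.958), KCNA5 (0.756 ± 0.443) and MYL2 (0.294 ± 0.240). Only HEY2 and NR2F2, and KCNJ3 and MYL7, were neighbours whose control libraries did not overlap. H3K4me1 was more even, from 4.60 ± 0.127 CPM per kb at NR2F1 to 9.87 ± 0.960 at MYL7.

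**Figure D2:**
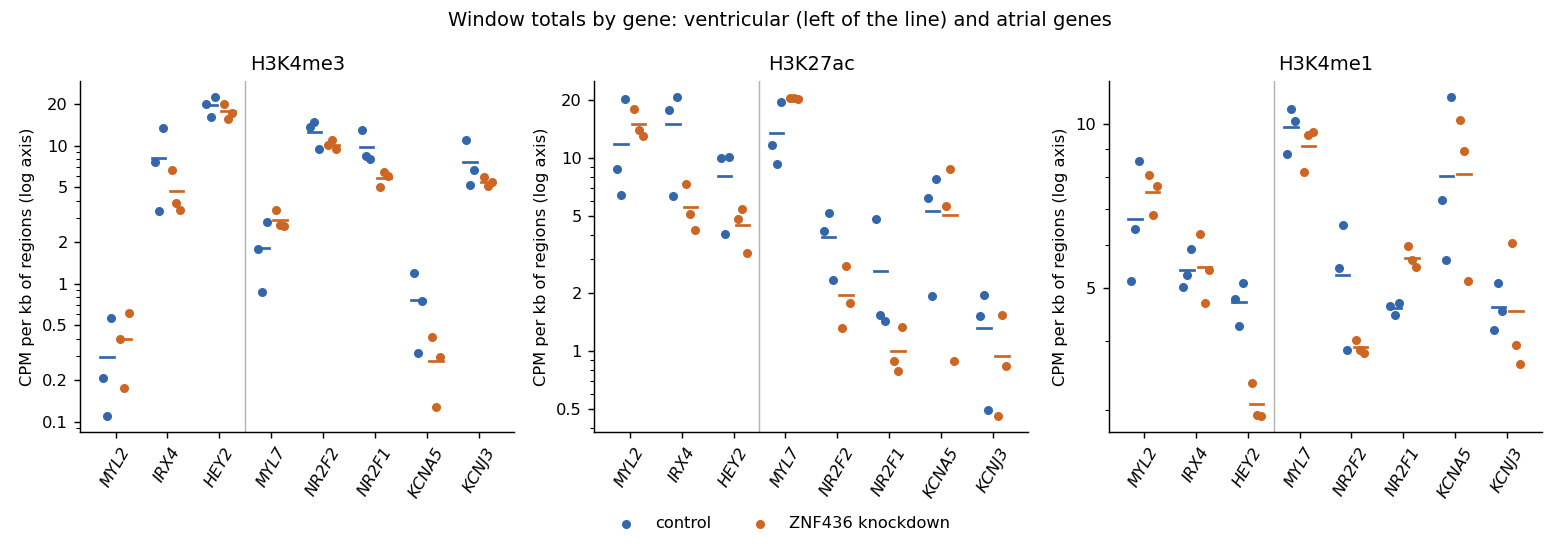
Window totals of each gene in CPM per kb of region, on a log axis, for H3K4me3, H3K27ac and H3K4me1; points are libraries, short lines the group means, and the vertical line separates ventricular from atrial genes. The knockdown points for H3K27ac at MYL7 lie close together, between 20.3 and 20.6 CPM per kb, above all 3 control points.

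The knockdown libraries were then compared with the control libraries. No region of the 8 genes passed the test in any mark (edgeR, adjusted p under 0.05). Across all tested regions, 0.37% were called higher and 0.183% lower in H3K4me3. In H3K27ac these shares were 0.00813% and 0.00325%, in H3K9me3 0.00654% and 0.00327%, and in H3K4me1 0% and 0%. Of the 36 regions, 20 had enough counts for a test in H3K4me3, 24 in H3K27ac, 29 in H3K4me1 and 10 in H3K9me3. With DESeq2, 3 were called in H3K4me3, all at NR2F1, and 3 in H3K27ac, of which 2 at IRX4 and 1 at NR2F1. DESeq2 called 0 of the 36 regions in each other mark. Over the whole table it called 271 regions higher and 185 lower of 20025 in H3K4me3. In H3K27ac it called 462 higher and 207 lower of 37643. In H3K9me3 it gave an adjusted p to only 1529 regions of the genome. The leading NR2F2 and IRX4 regions were not among them, so they could not be called there. Limma-voom called 0 in every mark. Leaving out single libraries, as done below for single regions, also changed calls over the whole table. Without control library 3 (edgeR), 517 of 30081 tested regions were called higher and 287 lower in H3K4me3. In H3K27ac these were 1109 and 304 of 72122, and in H3K4me1 1453 and 966 of 90015. Without control library 2 they were 139 and 100 of 29677, 55 and 37 of 70404, and 130 and 115 of 89112.

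At an unadjusted p under 0.05 (edgeR), 5 chamber gene regions were lower and 0 higher in H3K4me3, where 4.71% of all tested regions were lower and 5.54% higher at that level. For H3K27ac there were 6 lower and 1 higher, against 5.19% and 5.97% of all. For H3K4me1 there were 4 lower and 1 higher, against 5.63% and 4.89%. For H3K9me3 there were 0 of either, against 4.5% and 3.86%. The median log2 fold change of the tested H3K27ac regions was -0.16 for the ventricular genes (12 regions) and -0.45 for the atrial genes (12 regions), beside -0.04 for all 61484 tested. For H3K4me3 the medians were -0.62 (5 regions) and -0.36 (15 regions), beside -0.0019 for all. For H3K4me1 they were -0.16 (12 regions) and -0.08 (17 regions), beside -0.03 for all, and for H3K9me3 0.50 (3 regions) and 0.51 (7 regions), beside 0.0025 for all. In H3K9me3 8 of the 10 tested regions had a log2 fold change above 0, beside 15348 of all 30565 tested. Of the 10, 4 lay in the NR2F1 window, and regions of the same window are not independent. Counts were low, such as 20 in control and 40 in knockdown libraries at chr7:44169136-44173269 (MYL7). A region with few counts can pass the count filter through the group where it is higher. Tested regions are those with enough counts, so these medians leave out the members with the lowest values. In these pooled cells, fewer cells with a mark and less of the mark per cell cannot be told apart.

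Another description counts the tested regions whose 3 knockdown libraries all lay above, or all below, the 3 control libraries. In H3K4me3 this held for 1 of the 20 regions with the knockdown higher, beside 8.8% of all tested regions, and for 4 with it lower, beside 7.47%. The 4 lower ones were all in the NR2F1 window. In H3K27ac the counts were 2 higher (9.3% of all) and 3 lower (8.15% of all), and in H3K4me1 1 higher (7.9%) and 4 lower (7.72%). In H3K9me3 they were 0 higher (7.03%) and 0 lower (7.45%).

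**Figure D3:**
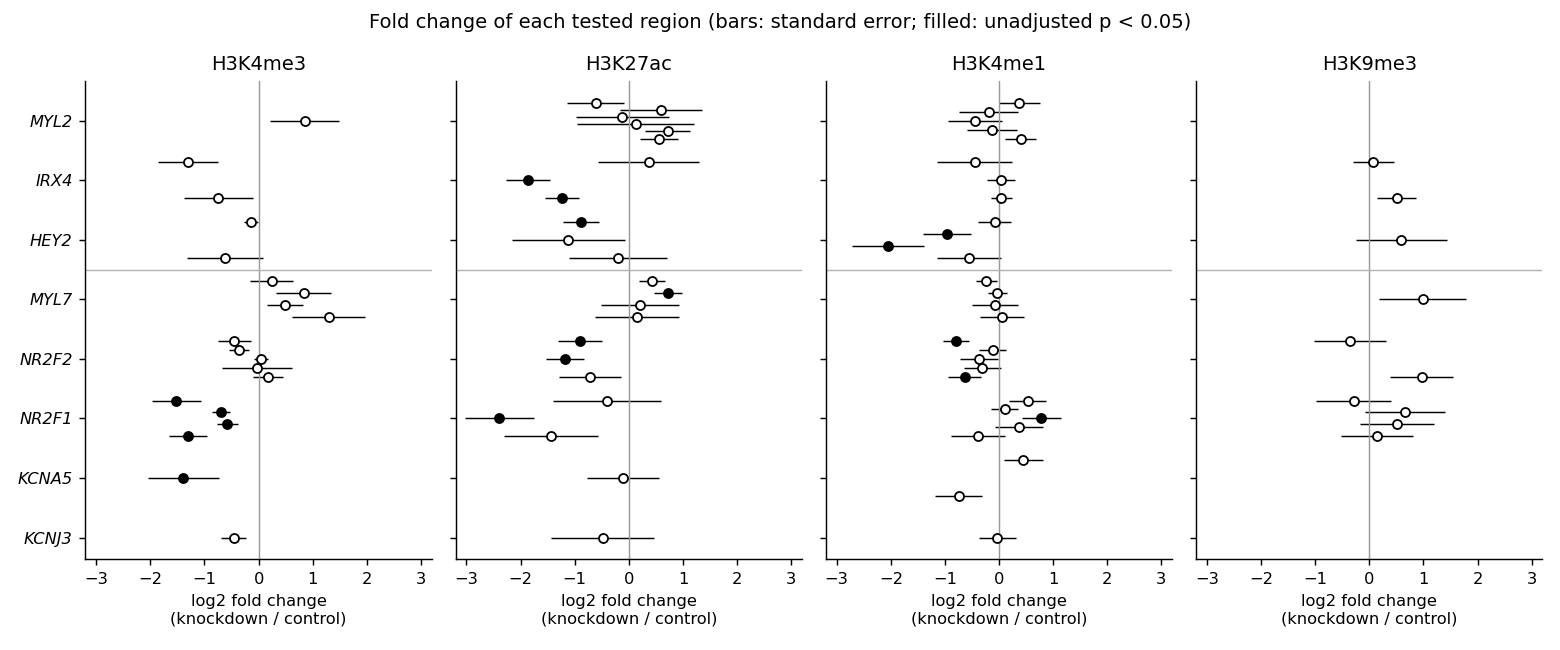
Log2 fold change, knockdown over control, of each tested region by gene (rows) and mark (panels), with the standard error as bars and filled points where the unadjusted p was under 0.05; the horizontal line separates ventricular from atrial genes. All 4 MYL7 points lie right of 0 in H3K4me3 and H3K27ac, and all 4 NR2F1 points lie left of 0 in H3K4me3.

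IRX4 had the smallest p of the chamber genes in H3K27ac. In the region chr5:1875622-1881161, H3K27ac was 83.9, 35.9 and 127 CPM in control libraries 1, 2 and 3 and 38.9, 13.91 and 14.9 CPM in knockdown libraries 1, 2 and 3. Control library 2 lay within the knockdown range. The log2 fold change was -1.87 (SE 0.40, adjusted p = 0.0932, edgeR). The leading IRX4 region went from 157, 51.7 and 158 to 60.4, 53.6 and 42.5 CPM (edgeR log2 fold change -1.23 with SE 0.32, adjusted p = 0.136), again with control library 2 among the knockdown values. Without control library 2 both passed the test, with log2 fold changes of -2.21 (adjusted p = 0.00219) and -1.59 (adjusted p = 0.00126, edgeR). Without control library 3 they were -1.38 (adjusted p = 0.0604) and -0.98 (adjusted p = 0.111), and without control library 1 -1.84 (adjusted p = 0.388) and -1.001 (adjusted p = 0.500, edgeR). Over all fits their adjusted p ranged from 9.51e-06 to 0.520 and from 0.00126 to 0.564.

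H3K4me3 at IRX4 overlapped between the groups. The leading region held 91.5, 41.8 and 166.6 CPM in control and 86.8, 48.2 and 44.3 CPM in knockdown libraries (edgeR log2 fold change -0.74 with SE 0.63, adjusted p = 0.792). In its neighbour H3K4me3 was 16.3, 5.34 and 22.4 against 8.17, 5.64 and 3.91 CPM (adjusted p = 0.500). Without control library 2 that neighbour passed, at a log2 fold change of -1.72 (adjusted p = 0.000966, edgeR; 0.000966 to 0.809 over all fits). Without control library 3 it was -0.87 (adjusted p = 0.434), and that of the leading region -0.16 (adjusted p = 0.954, edgeR). H3K4me1 in the leading region was 45.3, 49.8 and 52.8 against 53.0, 43.6 and 55.5 CPM (log2 fold change 0.04, SE 0.19).

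HEY2 had overlapping H3K4me3 values in its leading region, 165, 135 and 186 CPM in control and 167, 129.5 and 144 CPM in knockdown libraries (edgeR log2 fold change -0.14 with SE 0.14, adjusted p = 0.807). H3K27ac there was 66.9, 26.0 and 71.6 against 28.2, 39.35 and 21.8 CPM (edgeR log2 fold change -0.88 with SE 0.34, adjusted p = 0.321). Control library 2 lay inside the knockdown range, as at IRX4. H3K4me1 in the leading region also overlapped, at 16.2, 17.8 and 12.5 against 12.49, 14.8 and 16.6 CPM (log2 fold change -0.08, SE 0.31). In H3K4me1 a smaller HEY2 region (chr6:126081078-126081968) held 7.15, 3.08 and 7.003 CPM in control and 1.999, 0.943 and 1.197 CPM in knockdown libraries. Here the groups did not overlap (edgeR log2 fold change -2.05 with SE 0.66, adjusted p = 0.282), as was so with the knockdown lower in 7.72% of tested H3K4me1 regions. The window total of H3K4me1 at HEY2 was 39.8, 35.6 and 42.8 against 28.0, 24.5 and 24.3 CPM, also without overlap (exact permutation test, two-sided, p = 0.1, the smallest that 3 against 3 libraries allow; 7.47% of 30 kb bins of the genome did the same).

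At MYL2 the values of H3K27ac were spread more widely in control than in knockdown cells. The region chr12:111367817-111370722 held 32.2, 16.7 and 67.7 CPM in control and 67.4, 56.3 and 48.0 CPM in knockdown libraries (edgeR log2 fold change 0.56 with SE 0.36, adjusted p = 0.603). Control library 3 was as high as the highest knockdown library. Without it the log2 fold change was 1.25 (adjusted p = 0.0389, edgeR; 0.0389 to 0.907 over all fits). Without control library 2, the lowest, it was 0.21 (adjusted p = 0.907), and without control library 1 0.45 (adjusted p = 0.852, edgeR). Over the whole window H3K27ac went from 62.8, 46.5 and 145.9 CPM to 129, 100.8 and 93.0 CPM, a log2 ratio of means of 0.34. That ratio was 1.00 without control library 3, 0.05 without control library 2 and 0.17 without control library 1. H3K4me3 over the window was 2.84, 1.25 and 4.40 CPM in knockdown libraries. The leading MYL2 region was too low to test in any mark, with 8 and 3 counts of H3K4me3 in control and knockdown libraries, 27 and 19 of H3K27ac, 28 and 26 of H3K4me1 and 0 and 0 of H3K9me3.

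MYL7, the atrial light chain gene, had mean values above control in H3K27ac and H3K4me3 in all 4 of its regions, none of which passed the test. In the broad region chr7:44174147-44182559, H3K27ac was 89.1, 67.7 and 169.5 CPM in control and 177, 180.8 and 182 CPM in knockdown libraries. The groups did not overlap, as in 9.3% of tested H3K27ac regions with the knockdown higher, but control library 3 was close to the knockdown values. The log2 fold change was 0.73 (SE 0.26, adjusted p = 0.287, edgeR). H3K4me3 there was 14.4, 6.76 and 25.1 against 34.7, 22.8 and 24.7 CPM, which overlapped (edgeR log2 fold change 0.83 with SE 0.50, adjusted p = 0.683). This region was singled out after its values were seen.

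Without control library 3, both marks passed the test in that MYL7 region. The log2 fold change was then 1.22 for H3K27ac (adjusted p = 0.0065; 0.0065 to 0.647 over all fits) and 1.38 for H3K4me3 (adjusted p = 0.0350, edgeR; 0.0350 to 0.885 over all fits). The library left out there is the control nearest to, or among, the knockdown values. In the same fits 1109 of 72122 tested H3K27ac regions and 517 of 30081 tested H3K4me3 regions were called higher. Without control library 2, the lowest control, the log2 fold changes were 0.49 (adjusted p = 0.456) and 0.47 (adjusted p = 0.591, edgeR). H3K4me1 in it was 64.3, 67.3 and 70.8 CPM in control and 58.5, 74.96 and 64.2 CPM in knockdown libraries, with a log2 fold change of -0.03 (SE 0.18). In the leading MYL7 region H3K4me3 was 5.87, 3.35 and 10.5 against 8.72, 8.93 and 9.70 CPM (edgeR log2 fold change 0.48 with SE 0.33, adjusted p = 0.689). H3K27ac in the leading region was 1.86, 5.46 and 5.26 against 3.04, 5.43 and 6.07 CPM (log2 fold change 0.21, SE 0.72). H3K4me1 there was 8.23, 4.98 and 8.75 against 6.75, 5.19 and 8.78 CPM (log2 fold change -0.08, SE 0.42). Both overlapped, so the separation in H3K27ac was in the broad region and not in the one with the densest H3K4me3.

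No NR2F2 region passed the test. Over its window H3K27ac was 92.9, 115.5 and 52.2 CPM in control and 29.2, 61.7 and 39.5 CPM in knockdown libraries, which overlapped (exact permutation test, two-sided, p = 0.2), as did 2 of its 3 tested regions. The leading region held 52.6, 52.6 and 30.6 CPM in control and 10.9, 30.5 and 18.8 CPM in knockdown libraries. The groups did not overlap, though only just, with 30.56 CPM in control library 3 and 30.53 CPM in knockdown library 2. The log2 fold change was -1.18 (SE 0.36, adjusted p = 0.200, edgeR). H3K4me3 in the same region was 202, 209 and 135 against 134, 153 and 138 CPM (edgeR log2 fold change -0.36 with SE 0.18, adjusted p = 0.602), with control library 3 among the knockdown values. H3K4me1 there was 28.4, 42.4 and 23.0 against 29.5, 33.7 and 23.5 CPM (log2 fold change -0.12, SE 0.25), which overlapped.

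Without control library 3, the leading NR2F2 region passed in both marks, at log2 fold changes of -1.37 for H3K27ac (adjusted p = 0.0356; 0.0356 to 0.590 over all fits) and -0.54 for H3K4me3 (adjusted p = 0.000177, edgeR; 0.000177 to 0.858 over all fits). Control library 3 is the lowest control in both. In the same fits 304 of 72122 tested H3K27ac regions and 287 of 30081 tested H3K4me3 regions were called lower. Without control library 2 the log2 fold changes were -1.05 (adjusted p = 0.284) and -0.25 (adjusted p = 0.833), and without control library 1 -1.05 (adjusted p = 0.561) and -0.28 (adjusted p = 0.846, edgeR). The NR2F2 region chr15:96865095-96872075 had the smallest p of the chamber genes in H3K4me1. It held 38.1, 39.4 and 28.0 CPM in control and 19.7, 16.03 and 24.7 CPM in knockdown libraries (edgeR log2 fold change -0.80 with SE 0.25, adjusted p = 0.255). All knockdown libraries were below all controls, and without control library 3 it passed at -0.93 (adjusted p = 0.0266, edgeR; 0.0266 to 0.743 over all fits). Without control library 1 it was -0.74 (adjusted p = 0.671) and without control library 2 -0.72 (adjusted p = 0.205, edgeR).

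NR2F1 had lower H3K4me3 values in each of its 4 tested regions, with no overlap between the groups in any of them, beside 7.47% of all tested regions with the knockdown lower in that way. The leading region held 51.6, 39.2 and 30.5 CPM in control and 23.9, 24.6 and 26.3 CPM in knockdown libraries. Every knockdown library was below every control library. The log2 fold change was -0.70 (SE 0.16, adjusted p = 0.0759, edgeR). DESeq2 called this region (adjusted p = 0.00551), and so did edgeR without control library 3 (-0.87, adjusted p = 0.00148), while without control library 1 the log2 fold change was -0.49 (adjusted p = 0.368, edgeR). The range over all fits was 1.45e-05 to 0.368.

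A second NR2F1 region (chr5:92922723-92924692) went from 26.5, 11.7 and 11.9 to 6.52, 8.93 and 4.73 CPM of H3K4me3 (edgeR log2 fold change -1.31 with SE 0.35, adjusted p = 0.171). Without control library 3 its log2 fold change was -1.50 (adjusted p = 0.0350, edgeR; 8.04e-08 to 0.538 over all fits), and without control library 1 -0.81 (adjusted p = 0.448). The other tested regions had log2 fold changes of -1.52 and -0.58. Neighbouring regions share the same cells and locus, so these 4 are not independent. Over the NR2F1 window H3K4me3 was 146, 93.8 and 89.7 CPM in control and 56.7, 72.7 and 67.6 CPM in knockdown libraries. Fitted with all 30 kb bins of the genome, of which 0.215% were called lower, the window had a log2 fold change of -0.75 (SE 0.23, adjusted p = 0.364, edgeR).

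In one NR2F1 region H3K27ac was lower and H3K4me1 higher in every knockdown library than in any control library. In that region, chr5:92918343-92922382, H3K27ac was 31.9, 9.31 and 7.885 CPM in control and 3.95, 1.36 and 3.86 CPM in knockdown libraries (edgeR log2 fold change -2.39 with SE 0.63, adjusted p = 0.144). Control library 1 held most of the control signal, and without it the log2 fold change was -1.47 (adjusted p = 0.667). Without control library 3 it was -2.70 (adjusted p = 0.0198, edgeR; 0.0198 to 0.667 over all fits). H3K4me1 in the same region was 6.50, 9.01 and 7.50 against 13.7, 14.1 and 11.8 CPM, higher in every knockdown library (edgeR log2 fold change 0.78 with SE 0.36, adjusted p = 0.436). Over the window H3K4me1 was 52.0, 50.02 and 52.8 CPM in control and 67.0, 63.2 and 61.25 CPM in knockdown libraries (exact permutation test, two-sided, p = 0.1; 9.57% of bins were higher without overlap). The window total of H3K27ac was 54.5, 17.3 and 16.1 against 10.02, 8.82 and 14.9 CPM, a log2 ratio of means of -1.38, or -0.57 without control library 1. In the leading NR2F1 region neither mark separated: H3K27ac was 4.95, 1.60 and 5.26 against 0, 2.71 and 6.07 CPM, and H3K4me1 was 21.2, 23.9 and 20.3 against 22.7, 21.4 and 26.1 CPM. Their log2 fold changes were -0.41 (SE 1.00) and 0.11 (SE 0.25).

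KCNA5 held 69 H3K4me3 counts over the control and 24 over the knockdown libraries. Its leading region went from 2.65, 0.783 and 1.77 to 1.01, 0.313 and 0.652 CPM, with control library 2 inside the knockdown range (edgeR log2 fold change -1.39 with SE 0.65, adjusted p = 0.477). KCNJ3 had 28.9, 13.6 and 17.5 CPM of H3K4me3 in control and 15.7, 13.5 and 14.3 CPM in knockdown libraries (edgeR log2 fold change -0.46 with SE 0.24, adjusted p = 0.539). KCNA5 had 22 and 24 H3K27ac counts in that region, too few to test, and its H3K4me1 was 8.23, 7.82 and 11.8 against 6.50, 7.54 and 2.59 CPM, without overlap (edgeR log2 fold change -0.75 with SE 0.44, adjusted p = 0.559). H3K4me1 at KCNJ3 was 11.04, 13.5 and 12.01 against 15.99, 10.4 and 9.58 CPM (log2 fold change -0.03, SE 0.34). In H3K27ac KCNJ3 had 33 counts over the controls and 24 over the knockdown libraries, at 4.02, 5.13 and 1.31 against 1.21, 4.07 and 2.21 CPM, which overlapped (edgeR log2 fold change -0.49 with SE 0.95, adjusted p = 0.900).

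H3K9me3 had few counts at the 8 genes, and none of the 10 tested regions had an unadjusted p under 0.05 (edgeR). The smallest p belonged to the leading NR2F2 region, with 1.63, 2.76 and 9.95 CPM in control and 12.7, 9.09 and 7.11 CPM in knockdown libraries (edgeR log2 fold change 0.97 with SE 0.58, adjusted p = 0.674). Next was the leading IRX4 region, with 8.98, 20.2 and 13.3 against 15.7, 29.3 and 14.9 CPM (edgeR log2 fold change 0.50 with SE 0.36, adjusted p = 0.749). The groups overlapped at both. In the other leading regions counts over the control and knockdown libraries were 22 and 32 at HEY2, 24 and 40 at NR2F1, 10 and 11 at MYL7, 8 and 26 at KCNJ3, 0 and 8 at KCNA5 and 0 and 0 at MYL2. Over the MYL2 window H3K9me3 was 4.49, 5.51 and 1.84 CPM in control and 8.81, 11.98 and 7.46 CPM in knockdown libraries. They did not overlap, as in 11.1% of bins with the knockdown higher, and rest on 28 and 68 counts (edgeR log2 fold change 1.16 with SE 0.61, adjusted p = 0.472, in the fit with 30 kb bins).

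None of the 8 window totals passed in any mark in the fit with 30 kb bins (edgeR, adjusted p under 0.05). In H3K9me3 only 6 of the 8 were tested, as KCNA5 and KCNJ3 had too few counts. At an unadjusted p under 0.05 there were 0 windows higher and 2 lower in H3K4me3, beside 5.66% and 5% of all tested bins. In H3K27ac there were 1 higher and 4 lower, beside 6.73% and 6.74%. In H3K4me1 there were 0 higher and 2 lower, beside 5.56% and 6.9%, and in H3K9me3 0 of either, beside 5.47% and 5.64%. The smallest adjusted p was that of H3K27ac at IRX4, which went from 253, 90.2 and 295 CPM to 104, 72.6 and 60.2 CPM (log2 fold change -1.42, SE 0.32, adjusted p = 0.0725). Of all tested bins, 0.401% were called higher and 0.215% lower in H3K4me3, 0.0853% and 0.0114% in H3K27ac, 0% and 0% in H3K4me1 and 0.00377% and 0% in H3K9me3. Windows whose groups did not overlap numbered 0 higher and 1 lower in H3K4me3, beside 8.83% and 7.54% of bins, and 1 higher and 1 lower in H3K27ac, beside 9.58% and 9.15%. The window higher in H3K27ac was MYL7, at 174, 137 and 289 CPM in control and 302, 304 and 299 CPM in knockdown libraries (edgeR log2 fold change 0.60 with SE 0.23, adjusted p = 0.255). In H3K4me1 there was 1 higher and 1 lower, beside 9.57% and 7.47%, and in H3K9me3 2 higher and 0 lower, beside 11.1% and 5.42%. The 2 in H3K9me3 were MYL2 and KCNJ3. KCNJ3, with 8 and 26 counts, was not tested, while these shares cover tested bins only.

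The control libraries differed from each other in the balance of these genes. Relative to NR2F2, the H3K4me3 total of IRX4 stood at log2 ratios of -1.48, -2.78 and -0.15 in control libraries 1, 2 and 3, a range of 2.63, and at -1.23, -2.17 and -2.10 in the knockdown libraries, a range of 0.95. In H3K27ac the same ratios were 1.45, -0.36 and 2.496 in control and 1.84, 0.23 and 0.61 in knockdown libraries. Control library 3 was the highest and control library 2 the lowest of the controls in both marks. MYL7 relative to NR2F2 followed the same order among the controls, at -3.52, -4.69 and -2.37 for H3K4me3 and 0.90, 0.25 and 2.47 for H3K27ac. The knockdown libraries lay at -2.15, -2.64 and -2.44 for H3K4me3 and 3.37, 2.298 and 2.92 for H3K27ac. For both genes and both marks, knockdown library 1 was the highest and knockdown library 2 the lowest of the knockdown libraries. These ratios were chosen after the values were seen and carry no test. Whether libraries of the same number came from the same culture is not stated, and the part this spread plays in the fold changes was not tested beyond leaving libraries out.

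**Figure D4:**
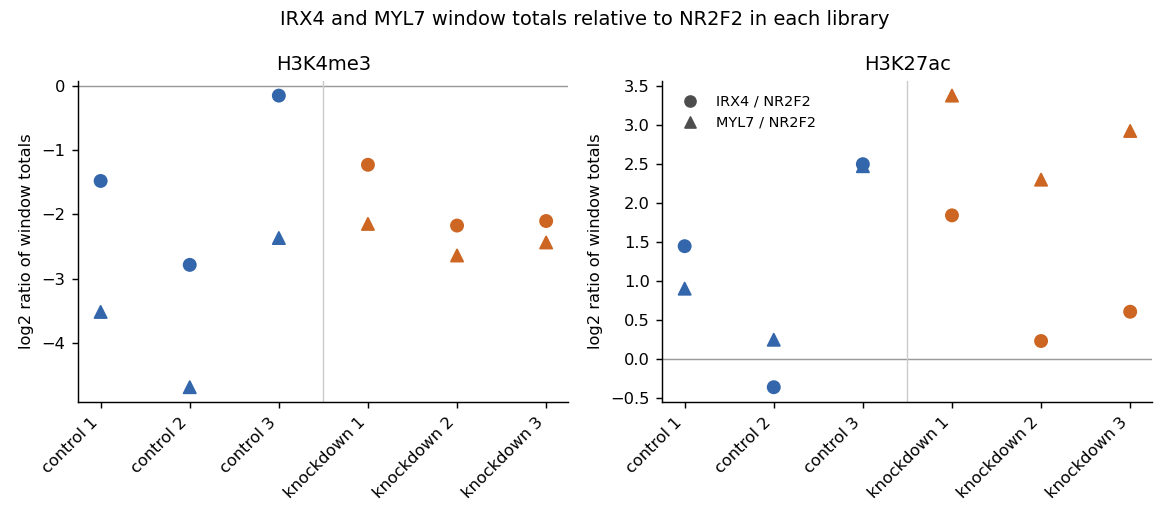
Log2 ratio of the IRX4 (circles) and MYL7 (triangles) window totals to the NR2F2 total in each library, for H3K4me3 and H3K27ac; blue points are control and orange points knockdown libraries. Control library 3 lies highest and control library 2 lowest among the controls in both panels for both genes.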

How the data were processed

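CUT&Tag libraries of 4 histone marks were read over 153244 regions. The deposited files hold counts per region, 1 library each, taken as raw because the values are whole numbers with unequal totals; build hg19, deepTools 3.5.4, bedtools 2.30.0 and Bowtie2 2.4.5 stand, without roles, in the submitters' processing notes. The sources used here do not say how regions were made or reads filtered. Even numbers made up 51.9% to 65.9% of counts above 0, so both mates of a pair may have been counted and counting error may be understated.

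Each mark's 6 libraries were fitted over the whole table with edgeR 4.0.16 (R 4.3.3), using filterByExpr, TMM, the robust quasi-likelihood test with group as the only term, and Benjamini-Hochberg adjustment over all tested regions, with 0.05 as the threshold. The SE is the log2 fold change over the square root of F. The script was tested on simulated data. Alternatives were limma-voom (limma 3.58.1), DESeq2 1.42.0, RLE and total-count scaling, leaving the filter off, requiring in 3 libraries the CPM that 30 reads give in the shallowest library (the strict filter), a replicate block, halved counts, leaving out each library and regions wholly inside a window; the fit of window totals with 30 kb bins was chosen after seeing the data. Named regions are, per gene, the region with the most H3K4me3 per kb and, per mark, the called regions or else the 2 with the smallest p; other regions were named after their values were seen. The genes and lists were chosen with earlier results of these data known. Other chamber genes and markers of other cell types need an hg19 annotation, not used here. The labels do not say that replicates are separate cultures, so a p-value here reflects spread among libraries that may be technical. Every pair of libraries in a group differed by more than sampling noise (chi-square per degree of freedom 3.16 to 10.3). Positions count from 1.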

Additional observations from a re-analysis of the deposited data

How the results depend on the processing

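The 0 calls among the chamber gene regions became 4 in H3K4me3 and 3 in H3K27ac without a filter on low counts, and 3 in each with DESeq2. In H3K27ac 1 was called with halved counts. Leaving out single libraries gave 0 to 4 calls in H3K4me3, 0 to 4 in H3K27ac, 0 to 1 in H3K4me1 and 0 in H3K9me3; those beyond 0 arose without control library 2 (1 in H3K4me3 and 2 in H3K27ac) or control library 3 (4, 4 and 1 in H3K4me3, H3K27ac and H3K4me1). The cause was not tested. RLE and total-count scaling, limma-voom, the strict filter and whole-inside regions gave 0 calls in each mark.

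With the replicate number as a block, 1 region was called in H3K27ac (at IRX4, log2 fold change -1.84, adjusted p = 0.0232, edgeR) and 0 in each other mark. Over all tested regions the numbers did not pair the libraries. Same-numbered control and knockdown deviations correlated at -0.098 to 0.064, and 4 of 12 control libraries correlated best with their own number. In the ratios of IRX4 and MYL7 to NR2F2, though, library 2 was the lowest in both groups in H3K4me3 and H3K27ac.

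Over the whole table, calls numbered 148 in H3K4me3, 7 in H3K27ac, 0 in H3K4me1 and 3 in H3K9me3. Leaving out single libraries gave 26 to 804, 0 to 1413, 0 to 2419 and 4 to 20, the highest without control library 3 or, in H3K9me3, control library 2. The other settings gave 143 to 666, 7 to 669, 0 to 208 and 2 to 49, and the replicate block 195, 137, 89 and 7.

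Among leading regions, 288 alternative values kept direction and side of the threshold, 9 came to pass it and 16 changed sign, none of them called. Of these, the H3K4me1 change at KCNJ3 was 0.013 with library totals and 0.00041 with the strict filter. When single libraries were left out, the log2 fold change ranged from -0.29 to 0.11 at KCNJ3, -0.29 to 0.16 at NR2F2, -0.031 to 0.14 at IRX4, -0.21 to 0.022 at HEY2 and -0.30 to 0.090 at MYL7 in H3K4me1, and from -1.52 to 0.18 at NR2F1 and -0.14 to 0.47 at MYL7 in H3K27ac. Of the window totals, 312 alternative values moved by less than 1 SD and 5 by more. Those 5 log2 ratios were H3K27ac at MYL2 without control library 3 (1.00, from 0.34) and at NR2F1 without control library 1 (-0.57, from -1.38), H3K9me3 at NR2F1 without control library 2 (0.96, from 0.25), and, with regions wholly inside a window, H3K4me1 at KCNA5 (-0.74, from 0.01) and at NR2F1 (0.24, from 0.31). Counts were low for H3K9me3 (windows from 8 counts at KCNA5 and KCNJ3 in control to 277 at IRX4 in knockdown libraries) and for H3K4me3 at KCNA5 (69 and 24), and the part depth plays there was not tested.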
